A study of Mus musculus with 4 samples.

Results

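Genes grouped here as quiescence factors were followed in single thymocytes: the forkhead factors Foxo1, Foxo3 and Foxp1, the Krüppel-like factors Klf2, Klf3, Klf6 and Klf13, and the growth and metabolic brakes Txnip, Ypel3 and Pik3ip1. They are 10 of the 31053 genes in the count matrices, taken by name with no measured value in the rule. Droplet single-cell RNA-seq counted unique molecular identifiers (UMIs, 1 per captured transcript molecule) in thymus cells of FVB/N mice. One library came from a wild type (WT) thymus and 1 from a preleukemic thymus of a Tal1/Lmo2 transgenic mouse, both at 6 weeks of age. A further 2 libraries came from Tal1/Lmo2 mice with T cell acute lymphoblastic leukemia at 3 months, called T-ALL#1 and T-ALL#2. Both transgenes are driven by the proximal Lck promoter, so the oncogenes are switched on in thymocytes from an early stage, and the preleukemic and leukemic mice carry both. Thymi were dissociated mechanically, red cells were lysed, and viable single cells were sorted before loading.

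Foxo proteins are transcription factors that growth factor signalling switches off: PI3K activates Akt, Akt phosphorylates Foxo, and Foxo leaves the nucleus. In T cells with little PI3K signal, nuclear Foxo1 supports genes of survival and circulation, among them Klf2, and Klf2 in turn supports S1pr1, the receptor with which mature thymocytes leave the thymus. Double-negative thymocytes at the Il2ra-positive (CD25) stage rest until they carry a pre-T cell receptor, then divide quickly, and Cd4/Cd8a double-positive cells later come to rest again.

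Cells with over 500 genes and under 10% mitochondrial UMIs were kept, and for T-ALL#2 also at least 3416 UMIs, which left 4220 WT, 5576 preleukemic, 5773 T-ALL#1 and 1975 T-ALL#2 cells with medians of 3800.5, 4888, 8742 and 17581 UMIs. Between 0 and 9 barcodes were shared by any pair of libraries. Levels are given as CPM, the UMIs of a gene per 1000000 UMIs of all genes. Tal1 was at 0 CPM in WT and at 68.3 to 410 CPM in the other 3 libraries. The libraries labelled WT and preleukemic are listed as male but held Xist at 1380 and 1869 CPM and 1 and 5 UMIs of Y-linked genes, which does not match the listed sex. T-ALL#1, listed as female, held Xist at 1932 CPM and 1 Y-linked UMI. T-ALL#2, listed as male, held Xist at 0.0828 CPM and 4413 Y-linked UMIs. Apart from Tal1 and these genes, animal identity rests on the labels. T cell markers were abundant in all 4 libraries, except Trbc1, which was at 0.663 CPM in T-ALL#2. A cell was called cycling when it held at least 1 UMI of Mki67 or Top2a, 2 genes transcribed mainly in dividing cells. This gave 20.6%, 23.8%, 47.9% and 61.9% cycling cells in WT, preleukemic, T-ALL#1 and T-ALL#2. The call rests on depth, since cells thinned to 2000 UMIs gave 18.2%, 14.3%, 31.1% and 27.4%, with WT above preleukemic and T-ALL#1 above T-ALL#2. With 1 library for WT and 1 for preleukemic there is no test between groups, and every interval given for a single library is a 95% exact interval that covers counting error only.

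The genes the results turn on most lie, in GENCODE M21 on mm10, at chr3:52268336-52353221 (Foxo1, ENSMUSG00000044167), chr8:72319033-72321656 (Klf2, ENSMUSG00000055148), chr3:96557957-96561883 (Txnip, ENSMUSG00000038393), chr7:126776955-126780514 (Ypel3, ENSMUSG00000042675) and chr11:3330401-3342971 (Pik3ip1, ENSMUSG00000034614), all on the plus strand. The promoters of all 10 genes were found in RefSeq (GRCm38.p6) as windows of 250 bases before to 50 after a start, 12 windows in all. They were searched on both strands for GTAAACA, the core sequence that forkhead proteins bind, and for GTCAACA, a variant of it. GTAAACA was in the windows of Txnip and Ypel3, and in 3.65% of all 32851 windows. GTCAACA was in the window of Klf2, on the opposite strand as TGTTGAC, and in 2.50% of all windows. The 3 matches are shown here because these genes recur in the results below, each as 30 bases with the match in capitals.
Txnip, chr3:96557825-96557854: ttggaggcctgGTAAACAagggccaagtag
Ypel3, chr7:126776977-126777006: ctggtctcggtGTAAACAagtcgaggcggc
Klf2, chr8:72318812-72318841: ctggttTGTTGACgccgtcgccatagggac
All 3 lines read along the plus strand, which is the strand of these genes. Positions are counted from the RefSeq starts, which for Ypel3 and Klf2 differ from the GENCODE starts above. The Txnip match begins 121 bases before the start, inside an exon of the antisense gene Gm15441. The Ypel3 match lies at base 26 after the start, in an untranslated exon of 3 protein-coding transcripts. The Klf2 match begins 244 bases before the start, where no feature is annotated. A match is a run of letters and does not show binding. The whole 250 bases before the Txnip start, with the match in capitals, show where it sits in the gene with the widest range of levels among the 10.
Txnip, chr3:96557707-96557956: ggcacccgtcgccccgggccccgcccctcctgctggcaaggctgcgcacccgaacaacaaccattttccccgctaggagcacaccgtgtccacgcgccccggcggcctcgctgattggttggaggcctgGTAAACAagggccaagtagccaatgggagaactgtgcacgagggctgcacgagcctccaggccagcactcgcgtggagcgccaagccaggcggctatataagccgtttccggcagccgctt

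Between thymi, the members did not move as a block. The preleukemic thymus had at least 2-fold less Foxo1, Klf2 and Klf13 than WT. By under 2-fold it had less Klf3 and Foxp1, and more Foxo3, Klf6, Txnip and Pik3ip1. The Foxp1 difference changed sign in cells thinned to 2000 UMIs (log2 0.0767). Both leukemias had at least 2-fold less Foxo3 and Txnip than the preleukemic thymus, and they also had less Foxp1, Klf6, Ypel3 and Pik3ip1. All levels below are CPM of the UMIs summed over the kept cells. Txnip, an arrestin-like protein that restrains glucose uptake and binds thioredoxin, was at 199 CPM in WT, 289 in preleukemic, 57.2 in T-ALL#1 and 30.7 in T-ALL#2. It had the widest range of the 10, and T-ALL#1 and T-ALL#2 were 5.06-fold and 9.43-fold below the preleukemic library while differing from each other by 1.86-fold. Foxo3 was at 30.6, 55.8, 21.1 and 16.7 CPM in the same order, so the preleukemic library was highest, and the leukemias were 2.65-fold and 3.34-fold below it with 1.26-fold between them.

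Foxo1, the main Foxo factor of T cells, was at 61.6 CPM in WT, 15.98 in preleukemic, 26.0 in T-ALL#1 and 16.8 in T-ALL#2. WT stood above the other 3 libraries, and the difference between T-ALL#2 and preleukemic was within counting error (log2 0.07, interval -0.09 to 0.24). Klf2 was at 174 CPM in WT, 48.6 in preleukemic, 69.0 in T-ALL#1 and 107 in T-ALL#2, and Klf13, a zinc finger factor known for driving Ccl5 in T cells, at 296, 131, 239 and 158. For both genes WT was highest and preleukemic lowest, by 3.57-fold and 2.26-fold. The mix of cells differed too, with 1593 of 3350 non-cycling WT cells double-positive and 115 of 4251 in preleukemic. Klf13 was at 124 and 116 CPM in non-cycling cells with Il2ra and no Cd4 or Cd8a UMI of WT and preleukemic. In non-cycling double-positive cells without Il2ra it was at 543 and 313. The part of the mix in the differences between thymi was not tested.

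Foxp1, a forkhead repressor that keeps naive T cells at rest, was at 294, 267, 149 and 111 CPM, with both leukemias below both other libraries. Ypel3, a small nuclear protein linked to growth arrest, was at 111, 114, 62.4 and 32.5 CPM, and its WT and preleukemic levels were within counting error of each other (log2 0.03, interval -0.04 to 0.10). Pik3ip1, a membrane protein that inhibits PI3K, was at 84.2, 150, 77.7 and 74.2 CPM. The preleukemic library stood above the rest for Pik3ip1, and the 2 leukemias were within counting error (log2 0.07, interval -0.00 to 0.13). Klf6, a Krüppel-like factor induced early in activation, was at 62.2, 101, 60.1 and 55.9 CPM, highest in preleukemic, and Klf3, a repressor that recruits CtBP, at 104, 61.9, 85.3 and 33.1, with T-ALL#1 and T-ALL#2 on either side of preleukemic.

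Among genes at 10 CPM or more in 1 of the libraries compared, 3 of the 10 members (Foxo1, Klf2 and Klf13) were at least 2-fold under WT in the preleukemic library, against 4.84% of all such genes, and none was 2-fold over, against 4.46%. Foxo3 and Txnip were at least 2-fold under preleukemic in both leukemias, against 10.6% of genes, and none was over in both, against 2.87%. Against WT, Foxo1 and Txnip were under in both leukemias, against 11.8% of genes, and none was over, against 3.46%. Among non-cycling cells alone the first 2 counts were again Foxo1, Klf2 and Klf13 (5.42% of genes) and Foxo3 and Txnip (10.5%), and 0 members were over (5.88% and 3.60%). There Foxo1 was no longer 2-fold under WT in T-ALL#1 (log2 -0.67, interval -0.79 to -0.54). The comparisons share their reference libraries and are not independent.

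The libraries differ in overall scale too. The median over all genes was 0.14 (log2) lower in T-ALL#1 than in WT and 0.38 lower in T-ALL#2, and the members' median was 0.69 and 1.16 lower. Scaling by TMM factors raised the 2 leukemias against WT by 0.31 and 0.55, after which Foxo1 was no longer 2-fold under WT in both, and the small differences of Klf3, Klf13 and Pik3ip1 in T-ALL#1 and of Klf6 and Pik3ip1 in T-ALL#2 against WT changed sign. In bulk sums of this kind, fewer cells with a gene and less RNA per cell cannot be told apart. The share of cells with a UMI changed with thinning: Klf2 was found in 23.1%, 13.4%, 34.4% and 63.1% of WT, preleukemic, T-ALL#1 and T-ALL#2 cells as sequenced, but in 18.8%, 7.37%, 12.03% and 19.7% when every cell was thinned to 2000 UMIs (991, 350, 94 and 0 shallower cells left out). Each of these genes is expressed in many cell types, so no cell type that lacks them was at hand as a background for such shares. Free RNA holds them too, since the members together made up 594 CPM of the T-ALL#2 barcodes with 1 to 99 UMIs and 636 CPM of its kept cells. Singly, Foxo3 was at 36.9 CPM in those barcodes, above its level in the kept cells. Klf2 (117) and Foxo1 (20.4) were above theirs within counting error, and the other members were below theirs. Of the genes that set states and classes, Mki67, Top2a, Il2ra and Cd8a were at 152, 147, 133 and 89.3 CPM there, and Cd4 and S1pr1 at 10.5 and 2.20. The part of free RNA in the T-ALL#2 levels and calls was not tested.

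**Figure D1:**
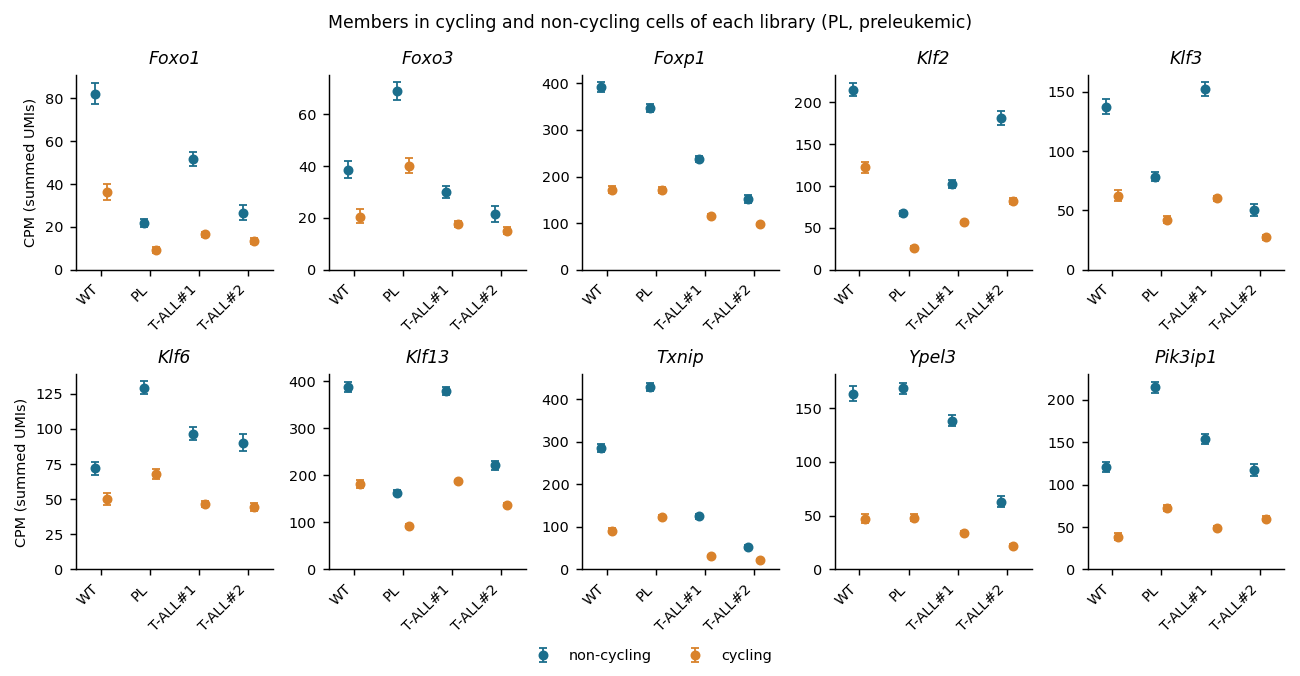
Level of each of the 10 genes (CPM of summed UMIs, linear axes from 0) in non-cycling (blue) and cycling (orange) cells of the 4 libraries, with 95% exact Poisson intervals. In every panel and library the cycling level is the lower one, for Txnip from 429 to 123 CPM in the preleukemic library and for Foxo3 in T-ALL#2 from 21.4 to 15.1.

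All 10 genes were lower in cycling than in non-cycling cells of the same library, in 4 of 4 libraries each, and all 10 fell in the test. The edgeR quasi-likelihood test, on UMI sums per library and state with the library as a block, called 26.6% of 11852 genes lower and 26.1% higher at an adjusted p under 0.05, so a call in this comparison is common. The 3 brakes on growth and metabolism changed most. Ypel3 was at 47.2, 48.3, 34.2 and 22.3 CPM in cycling cells of WT, preleukemic, T-ALL#1 and T-ALL#2 and at 163, 168, 138 and 63.0 CPM in non-cycling cells (log2 change -1.61, SE 0.087, edgeR adjusted p = 9.45e-05). The 2 states did not overlap across libraries, and how many of all genes share this was not counted. Txnip was at 90.9, 123, 32.1 and 23.2 CPM in cycling cells and 286, 429, 125 and 53.1 in non-cycling cells (-1.49, SE 0.110, edgeR adjusted p = 0.000169). Here the states overlapped between libraries, since cycling preleukemic cells held more Txnip than non-cycling T-ALL#2 cells. Pik3ip1 was at 38.8, 72.2, 49.4 and 59.7 CPM in cycling cells and 121, 215, 154 and 117 in non-cycling cells (-1.28, SE 0.107, edgeR adjusted p = 0.000237), again without overlap.

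Of the forkhead genes, Foxo1 fell further than Foxo3. Foxo1 was at 36.2, 9.08, 16.5 and 13.5 CPM in cycling cells and 82.1, 21.8, 51.8 and 26.7 in non-cycling cells (log2 change -1.11, SE 0.111, edgeR adjusted p = 0.000399). Foxo3 was at 20.5, 40.2, 17.8 and 15.1 against 38.7, 69.0, 29.9 and 21.4 CPM (-0.56, SE 0.086, edgeR adjusted p = 0.00166), the smallest of the 10 changes. For both, each library's own gap was clear, while the levels of different libraries overlapped. Foxp1 was at 171, 171, 116 and 97.2 against 393, 347, 237 and 151 CPM (-0.80, SE 0.097, edgeR adjusted p = 0.000715).

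The 4 Krüppel-like genes changed by similar amounts. Klf2 was at 122, 26.4, 56.4 and 81.8 CPM in cycling cells and 215, 67.2, 103 and 181 in non-cycling cells (log2 change -0.87, SE 0.112, edgeR adjusted p = 0.000876). Klf3, Klf13 and Klf6 changed by -0.89, -0.73 and -0.71. In single libraries the ratios of these 4 genes lay between -1.35 (Klf2, preleukemic) and -0.52 (Klf6, WT). Leaving out any 1 library left all 10 genes called. Without the library as a block, 2 of the 10 (Ypel3 and Pik3ip1) were called.

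**Figure D2:**
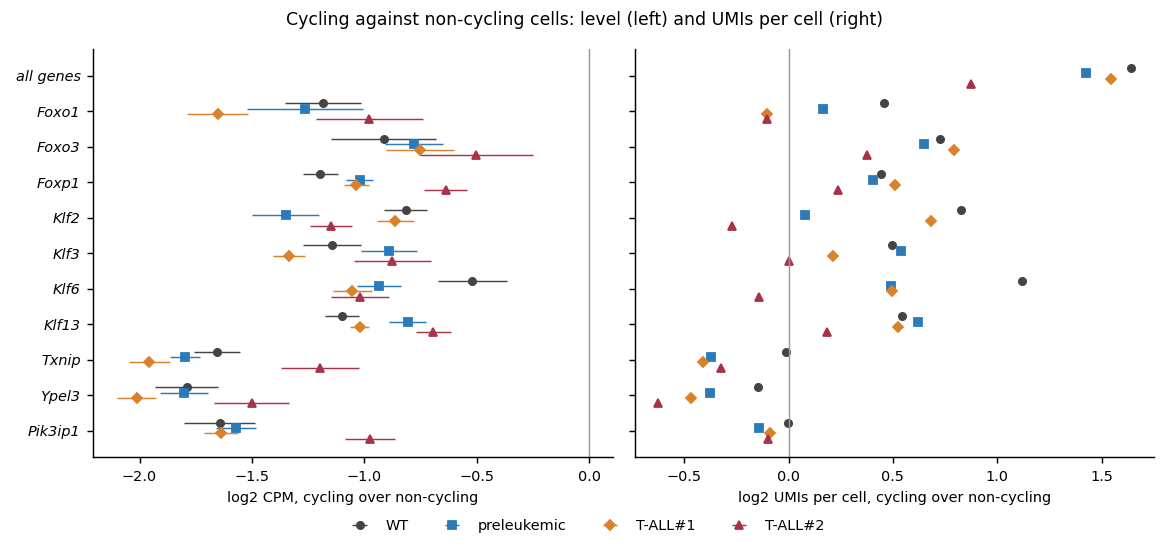
Log2 ratio of cycling over non-cycling cells for CPM (left, 95% exact intervals) and for UMIs per cell (right, all genes in the top row), 1 symbol per library. On the left every symbol lies below 0, while on the right Txnip, Ypel3 and Pik3ip1 lie at or below 0 and Foxo3, Foxp1 and Klf13 above 0 in all 4 libraries.

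Cells called cycling held more UMIs, and CPM divides by them. A cell with more UMIs is also more readily called cycling, and the part of this in the gap was not tested. All UMIs per cell were 3.12, 2.69, 2.92 and 1.83 times as many in cycling as in non-cycling cells of WT, preleukemic, T-ALL#1 and T-ALL#2. Counted per cell, the members separated into groups. Txnip had 0.991, 0.773, 0.753 and 0.800 times as many UMIs per cycling cell, Ypel3 0.902, 0.771, 0.724 and 0.648 times and Pik3ip1 0.999, 0.905, 0.939 and 0.933 times. None of these 3 brakes had more molecules in a cycling cell in any library. Foxo3 had 1.66, 1.57, 1.73 and 1.30 times as many, and Foxp1 and Klf13 also had more in all 4 libraries. For these genes the lower CPM of cycling cells is a smaller share of a larger total. Over all 40 pairs of a member and a library, 24 were higher per cycling cell and 16 lower. When each cell was thinned to 2000 UMIs and the states were set again, all 10 genes still fell, from -0.55 for Klf6 to -1.24 for Ypel3 (edgeR adjusted p = 0.00887 and 3.23e-06).

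Within classes set by Il2ra, Cd4 and Cd8a, the same comparison gave the following. Among Il2ra-detected cells without Cd4 or Cd8a UMIs, a class that includes the CD25-positive double-negative stage, all 10 genes fell, against 16.6% of 8992 genes lower and 18.4% higher. Ypel3 was at 19.9, 30.4, 28.2 and 15.4 CPM in cycling and 127, 137, 123 and 42.9 in non-cycling cells of WT, preleukemic, T-ALL#1 and T-ALL#2 (log2 change -1.93, SE 0.152, edgeR adjusted p = 4.45e-08). Txnip was at 75.0, 76.1, 24.2 and 21.5 against 198, 328, 124 and 38.7 CPM (-1.67, SE 0.189, edgeR adjusted p = 6.92e-06). Klf2 was at 17.6, 11.6, 67.0 and 59.6 against 139, 57.4, 123 and 115 CPM (-1.33, SE 0.240, edgeR adjusted p = 0.00149), and the WT and preleukemic gaps were wider than the leukemic ones. The WT sums hold 20 cycling and 34 non-cycling cells, the others 149 to 348 cells each. Whether the gap differs between groups was not tested.

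Among double-positive cells, with UMIs of both Cd4 and Cd8a whether or not Il2ra was found, 9 of 10 genes fell, against 25.6% of 9747 genes lower and 25.5% higher. The exception was Klf2, at 48.1, 36.9, 59.3 and 119 CPM in cycling and 95.9, 33.6, 68.9 and 230 in non-cycling cells (log2 change -0.44, SE 0.175, edgeR adjusted p = 0.0546). The preleukemic library, with 86 and 115 cells, went the other way, and without it Klf2 passed (-0.54, edgeR adjusted p = 0.0313). It also passed without T-ALL#1 (-0.64, edgeR adjusted p = 0.0255). Pik3ip1 was at 37.4, 37.6, 55.4 and 77.3 against 169, 189, 166 and 170 CPM (-1.60, SE 0.161, edgeR adjusted p = 2.30e-05). Its non-cycling level was nearly the same in the 4 libraries, and its cycling level was not. In cells thinned to 2000 UMIs, 3 members fell (Txnip, Ypel3 and Klf3), against 71 of 8064 genes lower and 435 higher. This was a fit of WT and T-ALL#1 alone, because the preleukemic library and T-ALL#2 kept 7 and 3 cycling cells. The members' median change was -0.39 in it. The same pair of libraries without thinning, a fit added after seeing the data, gave 9 and a median of -1.15. Thinning also set state and class again, which left 169 and 115 cycling cells of WT and T-ALL#1 in place of 503 and 920. Equal depth and the change of cells thus cannot be told apart in the smaller gap.

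Over all 5 classes set by Il2ra, Cd4 and Cd8a and all 4 libraries, 195 of 200 member ratios were below 0, of which 184 had an interval below 0. No such counts were made over all genes, and 1 member ratio had an interval above 0. In Cd4-only cells of WT, Klf2 was at 444 CPM in 159 cycling cells and 299.8 in 758 non-cycling cells (log2 0.57, interval 0.43 to 0.70). Foxo1 in the same cells was at 113 and 96.9 CPM, with an interval from -0.05 to 0.48.

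Markers of other cells moved with the states too. The myeloid and dendritic list summed to 634 CPM in cycling and 179 in non-cycling WT cells, and to 71.1 to 94.8 CPM in cycling and 96.6 to 163 in non-cycling cells of the other libraries. In WT these counts were concentrated in the 45 cycling cells with no Il2ra, Cd4 or Cd8a UMI (10584 CPM). The 4 B cell markers summed to 7.07, 6.66, 1.76 and 1.99 CPM in cycling and 13.7, 24.1, 13.8 and 11.2 in non-cycling cells of WT, preleukemic, T-ALL#1 and T-ALL#2, and the stromal and epithelial list to 49.5, 59.8, 44.0 and 30.01 against 81.0, 91.6, 90.9 and 47.4. Red cell markers were at 0.744 against 163 CPM in WT, and at 0.799 against 449 in its double-positive cells, with 2149 of the 2170 UMIs in 10 cells, and at most at 0.439 CPM in either state of the other libraries. Alternatives chosen after seeing the data left such cells out. Without cells with a UMI of a B cell or myeloid marker (Cst3 not used), which removed 276, 321, 222 and 100 cells, all 10 genes fell over all cells, in the Il2ra class and in double-positive cells. Without cells with a red cell marker UMI (31, 11, 1 and 9 cells) the counts were 10, 10 and 9, as with them. The part of the stromal list in the result was not tested. Immediate early and stress genes, which rise when tissue is dissociated, were lower in cycling cells too (summed 1049, 676, 879 and 1025 against 1879, 1101, 1330 and 1261 CPM), and their part in the result was not tested.

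Between classes at rest, Klf13 and Foxo1 were lower in non-cycling Il2ra-only cells than in non-cycling double-positive cells, and only Foxo1 passed the test. The double-positive class was set without regard to Il2ra, which was found in 21 of 1593, 2 of 115, 1172 of 1488 and 79 of 117 of these cells in WT, preleukemic, T-ALL#1 and T-ALL#2. The test called 2.16% of 8695 genes lower and 3.19% higher. Foxo1 was at 40.1, 15.6, 30.5 and 15.1 CPM in the Il2ra-only cells of WT, preleukemic, T-ALL#1 and T-ALL#2 and at 62.3, 24.0, 68.4 and 47.0 in double-positive cells (log2 change -0.96, SE 0.222, edgeR adjusted p = 0.0328). The double-positive level was higher in each of the 4 libraries, but the call was lost without the preleukemic library, T-ALL#1 or T-ALL#2 (edgeR adjusted p = 0.108, 0.108 and 0.144). Klf13 was at 124, 116, 328 and 174 against 539, 309, 452 and 294 CPM (-1.02, SE 0.250, edgeR adjusted p = 0.0578). The gap of Klf13 was wide in WT and preleukemic (log2 -2.13 and -1.41) and narrower in T-ALL#1 and T-ALL#2 (-0.46 and -0.76). Without WT or without T-ALL#1 it passed (edgeR adjusted p = 0.0256 and 0.0189). Without the cells holding B or myeloid marker UMIs, Klf13 passed (0.0316) and Foxo1 did not (0.0658). Without the double-positive cells that held Il2ra, an alternative added after seeing the data, Klf13 again passed (-1.05, edgeR adjusted p = 0.0360) and Foxo1 did not (-0.88, edgeR adjusted p = 0.0653).

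Klf2 went in different directions. It was at 139, 57.4 and 123 CPM in Il2ra-only cells of WT, preleukemic and T-ALL#1 and at 95.9, 33.6 and 68.9 in double-positive cells, but at 115 against 230 CPM in T-ALL#2 (log2 0.53, 0.77, 0.83 and -0.998, edgeR adjusted p = 0.611 over the 4 libraries). The double-positive cells of WT thus held the lowest Klf2 of any WT class, and those of T-ALL#2 the highest value of that library. In T-ALL#2 the 79 double-positive cells with Il2ra held 277 CPM of Klf2 and the 38 without it 104, and against cells without Il2ra the 4 ratios were 0.55, 0.71, 0.55 and 0.15 (fitted 0.61, SE 0.169, edgeR adjusted p = 0.0545).

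**Figure D3:**
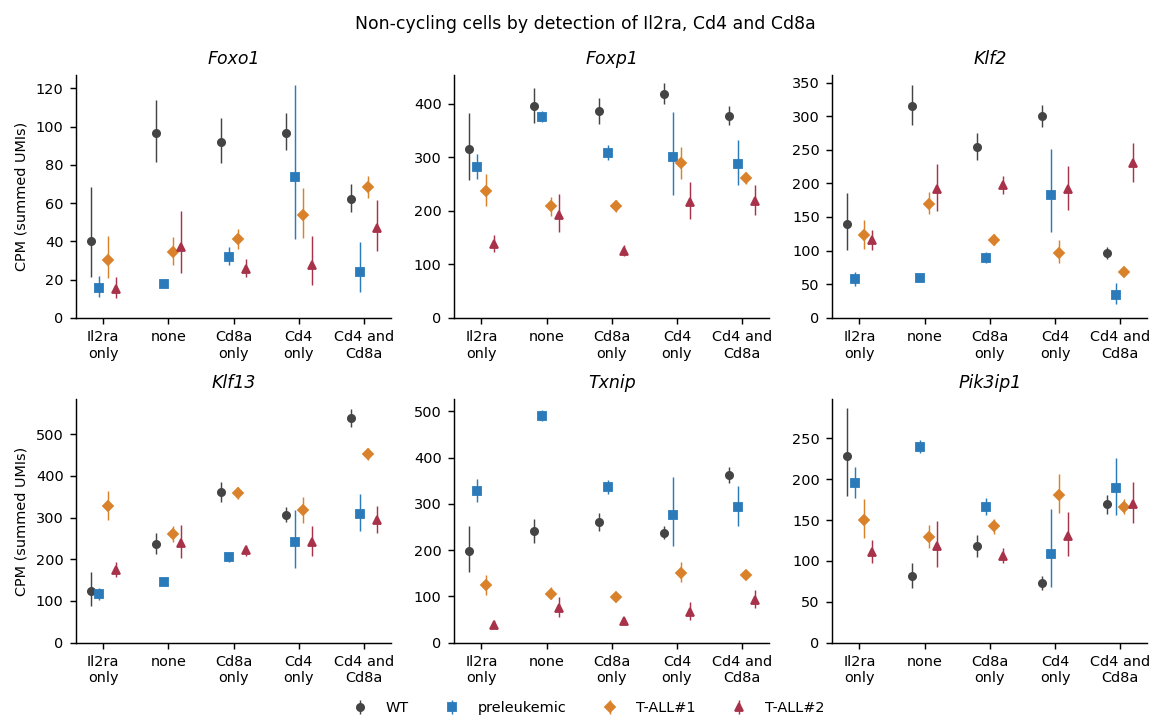
Level of 6 members (CPM of summed UMIs, 95% exact intervals) in non-cycling cells of 5 classes, by which of Il2ra, Cd4 and Cd8a had a UMI, 1 symbol per library. Klf13 is highest in double-positive cells of all 4 libraries, with 539 CPM in WT, and Klf2 of T-ALL#2 stands at 230 CPM in that class, above the other libraries.

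Cells with S1pr1 stood out by Klf2 and Foxo1. Among non-cycling cells, S1pr1 was detected in 378 WT, 196 preleukemic, 91 T-ALL#1 and 22 T-ALL#2 cells. Klf2 was at 606, 457, 561 and 440 CPM in these cells and at 125, 46.4, 87.3 and 174 in cells without an S1pr1 UMI. The groups did not overlap, which was not counted over all genes either. The fitted log2 change was 2.48 (SE 0.411), but the preleukemic ratio of 3.30 and the T-ALL#2 ratio of 1.34 lay far apart, and the edgeR adjusted p was 0.0504. This p ranged from 5.31e-19 in cells thinned to 2000 UMIs to 0.99974 without the library as a block. Leaving out T-ALL#2 gave 9.46e-09, leaving out preleukemic 0.00132, leaving out T-ALL#1 0.127 and leaving out WT 0.354, and the change stayed positive in each.

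Foxo1 was at 186, 54.2, 118 and 55.0 CPM with S1pr1 and 58.3, 20.0, 49.6 and 25.9 without (log2 change 1.498, SE 0.166, edgeR adjusted p = 8.26e-06). It rose, as did Ypel3 (189, 188, 231 and 102 against 157, 167, 135 and 61.9 CPM, 0.51, SE 0.141, edgeR adjusted p = 0.0322), while the test called 3.63% of 10447 genes higher and 1.74% lower. Ypel3 was no longer called without T-ALL#1 (edgeR adjusted p = 0.298). Foxo3 went the other way without passing (23.7, 40.0, 25.8 and 15.7 against 42.1, 70.5, 30.1 and 21.6 CPM, -0.57, edgeR adjusted p = 0.0875). Without WT, Klf3, Klf6 and Txnip were called higher as well, and 5 members in all.

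Cells of several coreceptor classes are mixed in such a split, so the comparison was repeated within classes with at least 10 cells on both sides, 11 pairs of class and library. The Klf2 interval was above 0 in 11 of 11, from 0.54 in Cd8a-only cells of T-ALL#2 to 3.70 in Il2ra-only cells of the preleukemic thymus. In 58 double-positive WT cells with S1pr1, Klf2 was at 581 CPM against 47.3 in the other 1535. Those 58 cells held more UMIs each. Klf13 was found in 93.1% of them and in 70.6% of the 1535, although its level was lower in them (430 against 550 CPM). The part of depth, and of doublets, which were not called, in these ratios was not tested. The Foxo1 interval was above 0 in 10 of 11, and that of Foxo3 in 0 of 11 and below 0 in 3. The share of all genes with such intervals was not counted, and these 11 pairs are of unthinned cells. After thinning to 2000 UMIs, Klf2 kept log2 ratios of 2.05, 3.15, 2.03 and 1.24, whereas Foxo1 was at 1.63 in WT and -0.05, 0.00 and 2.38 in preleukemic, T-ALL#1 and T-ALL#2, where the S1pr1-detected cells held 5, 5 and 4 Foxo1 UMIs. The dissociation and immediate early list summed to 1657, 1217, 1974 and 1466 CPM with S1pr1 and 1930, 1095, 1309 and 1255 without, lower with S1pr1 in WT and higher in the other 3 libraries. Of its 11 tested genes Fosb rose (0.65, edgeR adjusted p = 0.0373), and the part of this list in the result was not tested. B cells also express both S1pr1 and Klf2. The 4 B cell markers summed to 6.0, 82.7, 140 and 0 CPM in S1pr1-detected cells and 15.5, 20.9, 9.6 and 11.5 in the others. Without cells holding B or myeloid marker UMIs, Klf2 was at 612, 438, 496 and 440 against 132, 47.2, 86.7 and 173 CPM (2.39, edgeR adjusted p = 0.0350), and without cells holding red cell marker UMIs the adjusted p was 0.0489 by edgeR.

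**Figure D4:**
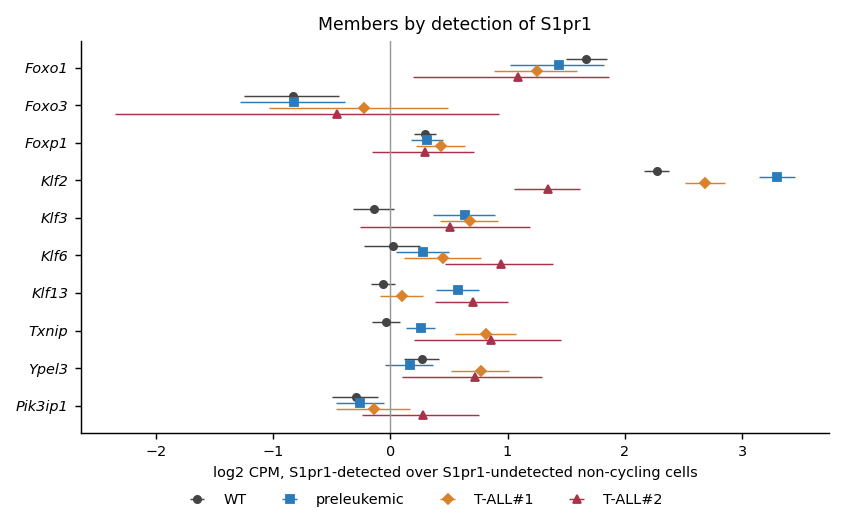
Log2 CPM ratio of S1pr1-detected over S1pr1-undetected non-cycling cells for the 10 genes, 1 symbol per library, with 95% exact intervals. Klf2 lies from 1.34 to 3.30 and Foxo1 above 0 in all 4 libraries, while Foxo3 lies below 0 in each, with intervals below 0 in WT and preleukemic.

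Genes of the same pathways were counted in the comparison of cycling with non-cycling cells, where the median over all genes tested was -0.04 and 26.6% of them fell and 26.1% rose. Of the PI3K and Akt axis, 9 of 17 tested genes fell and 1 rose, with a median of -0.31. Those that fell furthest were Sgk1 (-1.20), an Akt-related kinase, Inpp5d (-0.89), a phosphatase that opposes PI3K, and Pik3r1 (-0.76), a regulatory subunit of PI3K, while Akt1 itself rose by 0.54. Genes that restrain this axis and genes that serve it thus fell together. Of the Foxo target genes, 8 of 15 fell and 0 rose (median -0.72), among them the repressor Bcl6 (-1.35), the chemokine receptor Ccr7 (-1.29) and the cyclin-dependent kinase inhibitor Cdkn1b (-0.88). Of the Klf2-linked trafficking genes, 4 of 5 fell (median -1.22), with the integrin Itgb7 at -1.41 and the activation marker Cd69 at -1.22.

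Of the arrestin, thioredoxin and Ypel relatives, 7 of 12 fell and 2 rose (median -0.43). The 2 that rose were thioredoxin, Txn1 (1.04), the protein that Txnip binds, and its reductase Txnrd1 (0.30), and those that fell included Arrdc4 (-1.65), an arrestin-like relative of Txnip, Ypel5 (-1.06) and Ypel2 (-0.82). Of 8 other Foxo, Foxp and Klf genes tested, Klf7 (-1.02) and Klf4 (-0.69) fell, a share near that of all genes, and 10 more were not tested. Of 12 other quiescence genes, 9 fell (median -0.89), led by Mxd4 (-1.49), which competes with Myc for its partner, the antiproliferative Btg1 (-1.33) and Slfn2 (-1.28). Of 11 dissociation and immediate early genes, 7 fell (median -0.36), with Zfp36 at -1.04, Fosb at -0.71 and Junb at -0.70. In the comparison by S1pr1, the trafficking genes Ccr7 (2.35), Itgb7 (2.04) and S1pr4 (1.87) rose, and Cd69 was at 0.28 (edgeR adjusted p = 0.848).

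Over 39 sums by library, class and cycling state, centred within each library, the genes whose log2 levels were most like each member among 5772 genes were as follows, as Pearson correlations that describe these sums and share cells and depth. Foxo1 went with Slfn2 (0.941) and Sp100 (0.927), and Klf2 with Skil (0.892) and Ccr7 (0.891). Foxo3 went with Dtx3 (0.887) and with Pik3ip1 (0.880), and Foxp1 with Krit1 (0.962) and Akap13 (0.960). Txnip went with Rsrp1 (0.969) and Ypel3 (0.965), Ypel3 with Akap13 (0.971), and Pik3ip1 with Phf21a (0.963) and Ubn2 (0.954). Klf13 went with Satb1 (0.947) and Jakmip1 (0.935), Klf6 with Clk1 (0.911) and Rbm39 (0.907), and Klf3 with Proser1 (0.861) and 2610037D02Rik (0.856). Among the members, Foxo1 and Klf2 correlated at 0.89, and Foxo3 and Klf2 at 0.13.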

How the data were processed

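The deposited matrices hold UMI counts per gene and barcode, made by the authors with Cell Ranger on mm10 (per the labels). Per the file headers, Cell Ranger 3.0.2 wrote 3 libraries and version 4 wrote T-ALL#2, whose matrix holds every barcode. T-ALL#2 cells were therefore called here, with a limit of 3416 UMIs, the 99th percentile of the top 10000 barcodes divided by 10. Which 10x chemistry made which library is not given in the sources used here. No doublet caller was run. Kept libraries held 24042062, 40851235, 70745712 and 36236569 UMIs.

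Counts were summed per library and class and tested with edgeR 4.0.16 in R 4.3.3 (quasi-likelihood, TMM, filterByExpr, library as a block because both sums of a library come from 1 animal), with Benjamini-Hochberg adjustment over all genes tested and the genes that define a class left out. The libraries are the replicates, each 1 animal. Alternatives were DESeq2 1.42.0, RLE size factors, genes with at least 1 UMI, no block, thinning to 2000 UMIs, an upper limit on genes per cell, at least 2 cycling UMIs and leaving out each library. Intervals are exact Poisson, Clopper-Pearson or conditional binomial and cover counting error only.

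The members, gene lists and tests were chosen with earlier results of these data known. Named genes are the 10 members, up to 3 that rose and 3 that fell per list by size of change among those with an adjusted p under 0.05, and the 2 genes most correlated with each member at a mean of at least 20 CPM. The trafficking genes in the comparison by S1pr1 were named after their values were seen, and 1 gene of that list is not reported here. Of 31053 gene IDs, 30934 were found in GENCODE M21. Foxp1 (4016 to 10894 UMIs per library) overlaps Gm20696 on the same strand (205 to 1227), and Txnip is overlapped by antisense Gm15441 (9 to 31), so their counts are uncertain to that extent.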

Additional observations from a re-analysis of the deposited data

Results flagged for a closer look

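Barcodes of T-ALL#2 with 1 to 99 UMIs were not used as cells. They were 1187978 barcodes with 1814232 UMIs in all, and the 10 genes together held 1078 of these UMIs, or 594 CPM. This was a signal in data outside the comparisons, where a count of 0 would have allowed up to 3 UMIs, and it compares with 636 CPM in the kept cells of the same library.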

How the results depend on the processing

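In cycling against non-cycling cells, 10 of 10 members were called lower under every alternative run except the fit with no replicate block, which called 2. In the Il2ra class the same held, except for 4 with no replicate block and 8 of 9 tested after thinning, where WT was left out for its 9 cycling cells (without WT and unthinned, 10). In double-positive cells the count was 9, thinning, which left 2 libraries, gave 3, the same 2 unthinned gave 9, and the other alternatives 8 to 10. By S1pr1 the count was 2 (Foxo1 and Ypel3), and it stayed 2 after thinning, where Klf2 took the place of 1 of them. The count became 5 with RLE size factors, 4 with DESeq2 and 0 with no replicate block. For Il2ra-only against double-positive cells it was 1 (Foxo1; Klf13 in its place after thinning and without double-positive cells holding Il2ra), and became 4 with genes at 1 UMI or more, 2 with DESeq2 and 0 with no replicate block. Leaving out 1 library at a time gave 10 to 10, 10 to 10, 9 to 10, 1 to 5 and 0 to 2 calls in these 5 comparisons. With no replicate block, edgeR called 0 of all genes by S1pr1 and 0 between the classes (386 and 769 at an unadjusted p under 0.05), against 561 and 465 with it. Of 649 fitted changes of a member under an alternative, 585 kept their side of the threshold, 33 lost and 31 gained a call, and 4 changed sign, none of them called before or after (Klf2 by cycling in thinned double-positive cells, and between classes Foxo3 after thinning and Pik3ip1 without WT or without double-positive cells holding Il2ra).

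Ratios between libraries changed sign as follows. Against WT, TMM gave 0.0247 (Klf3, T-ALL#1), 0.00302 (Klf13, T-ALL#1), 0.19 and 0.37 (Pik3ip1, T-ALL#1 and T-ALL#2) and 0.40 (Klf6, T-ALL#2). Means over cells gave 0.0629 (Klf2) and 0.0672 (Klf6) in T-ALL#2. Thinning gave 0.0767 (Foxp1, preleukemic), 0.0474 (Klf6, T-ALL#2) and 0.20 (Pik3ip1, T-ALL#1). Within libraries, thinning gave 0.0652 (Foxo3) and 0.22 (Foxp1) in Il2ra-only T-ALL#2 cells by cycling, 0.26 (Foxo3, T-ALL#1) and 0.32 (Klf2, WT) in double-positive cells, -0.0470 (Foxo1, preleukemic, by S1pr1) and -0.29 (Pik3ip1, WT, between classes). The upper limit on genes gave 0.20 (Txnip, WT, Il2ra class). The cause was not tested. Cell numbers were small for cycling Il2ra-only cells of WT (20) and S1pr1-detected cells of T-ALL#2 (22).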
